A study of Rattus norvegicus with 88 samples.

Results

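The miRNAs miR-15b, miR-16, miR-195 and miR-497 (rno-miR-15b, rno-miR-16, rno-miR-195 and rno-miR-497 in the array's design) belong to 1 seed family, and their hepatic levels were followed over the life span of the rat. They were selected by name on an Agilent rat miRNA array and made up 4 of the 677 miRNAs on it, of which 314 were detected in at least 1 liver. All 4 were detected on all 88 arrays, each through 2 probe sequences. The livers came from untreated F344 rats, an inbred Fischer strain, from the colony of the National Center for Toxicological Research, and each array held the RNA of 1 animal. There were 45 females and 43 males of 9 ages. The youngest were 2 weeks old and the oldest 104 weeks, with further groups of 5, 6 and 8 weeks, of 15 and 21 weeks, and of 52 and 78 weeks. Each group of 1 sex and age held 5 rats, except the males of 5 and 104 weeks, with 4. No group carried a transgene or received an agent, and the estrous cycle of the females was not synchronized. Here 2 weeks is called young, 5 to 21 weeks adult and 52 to 104 weeks old, which gave 5, 25 and 15 arrays of females and 5, 24 and 14 of males. RNA came from ground and homogenized liver tissue, so a difference in the amount per cell cannot be told apart from a difference in the cell types present.

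miRNAs are short RNAs that guide a silencing complex to messenger RNAs, mostly by pairing of the seed, bases 2 to 8 of the mature strand. The miR-15/16 family is known for repressing cyclins, checkpoint kinases and other messages of the cell cycle, and is often described as a brake on proliferation. In rodents, hepatocytes still divide in the weeks before and after weaning, and the adult liver is largely quiescent. The arrays measured the miRNAs alone. Their target messages and the cell cycle were not analysed here.

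The mature sequences are shown because the shared seed defines the family and because the ends of the strands, outside the seed, show which members resemble each other. They were taken from RefSeq (rat build GRCr8), where all 4 names matched, and are written 5′ to 3′ with the seed in capitals. miR-322 and miR-503, from another cluster on chromosome X, are shown for comparison.
miR-15b: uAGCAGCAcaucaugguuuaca
miR-16: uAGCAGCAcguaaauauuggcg
miR-195: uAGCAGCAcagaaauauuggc
miR-497: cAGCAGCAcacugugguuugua
miR-322: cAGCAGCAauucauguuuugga
miR-503: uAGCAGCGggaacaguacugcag

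The seed AGCAGCA was found in 5 of the 693 mature rat miRNAs in the RefSeq table, the 4 members and miR-322. miR-503 does not hold it, and the capitals there mark the same bases 2 to 8. The rest of the strands did not group the members by chromosome. miR-16 and miR-195 were identical at 19 of 21 positions, with an unbroken run from base 12 to base 21, although they lie on different chromosomes. miR-15b and miR-497 were identical at 16 of 22 positions, with a run from base 14 to base 19. The neighbours were less alike, with 14 of 22 positions for miR-15b and miR-16 and 12 of 21 for miR-195 and miR-497.

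Mature miR-15b lies at chr2:155555197-155555218 and miR-16 at chr2:155555343-155555364, both on the plus strand. Their hairpins are 51 bases apart and lie within the span of Smc4, which encodes a condensin subunit that compacts chromosomes for mitosis. miR-497 lies at chr10:55450172-55450193 and miR-195 at chr10:55450509-55450529, also on the plus strand, with hairpins 255 bases apart and no annotated gene spanning them. The members thus form a chromosome 2 pair and a chromosome 10 pair.

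Levels are given as normalized intensity, the background-subtracted total signal of a miRNA divided by the 75th percentile of the 314 expressed miRNAs on the same array, so a value of 1 equals that percentile. The 2 probes of a miRNA correlated over the 88 arrays at r = 0.968 for miR-15b, 0.921 for miR-16, 0.960 for miR-195 and 0.948 for miR-497. Before scaling, the total signals on single arrays were 106.69 to 2807.64 for miR-15b, 195.348 to 5283.16 for miR-16, 31.3 to 1545.15 for miR-195 and 31.2 to 1215.01 for miR-497. The arrays detected 134 to 255 miRNAs each, their 75th percentile signal ranged from 28.1 to 289, and no spot of a target probe was saturated. Probe brightness differs between miRNAs, so levels were compared between arrays for 1 miRNA at a time. The scaling changes the size of the differences from 2 weeks of age, and for miR-15b and miR-16 it turned the direction of some contrasts between age classes, as the values below show.

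Both chromosome 10 miRNAs rose from 2 weeks of age to a level that differed little between ages from 15 weeks on. At 2 weeks, the 5 females had miR-195 at 2.18, 1.86, 2.01, 1.98 and 1.94 and the 5 males at 1.14, 1.01, 1.12, 1.14 and 1.19. These 10 arrays had the lowest values of miR-195 in each sex, with no overlap with any later age. At 5 weeks the females were at 3.85, 3.51, 4.09, 4.47 and 3.72, and the 4 males at 2.97, 4.09, 4.33 and 4.75. The level kept climbing after the 5-week point. At 52 weeks the females had 8.76, 7.39, 7.61, 10.9 and 9.23 and the males 6.87, 6.48, 6.42, 6.54 and 7.80. As group means, miR-195 in females went from 2.00 ± 0.116 (SD, n = 5) at 2 weeks to its highest value of 8.77 ± 1.40 (n = 5) at 52 weeks, and in males from 1.12 ± 0.0667 (n = 5) to its highest value of 7.42 ± 0.434 (n = 5) at 15 weeks. The highest group mean was 4.4 times the lowest in females and 6.63 times in males.

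miR-497 followed the same course. The 2-week females had 2.08, 1.81, 1.89, 1.73 and 1.82 and the 2-week males 1.21, 1, 1.11, 1.15 and 1.14. At 52 weeks the females had 7.46, 6.18, 6.04, 8.85 and 7.52, and the males 5.49, 5.10, 4.99, 5.94 and 6.01. All 2-week arrays were again below every later array of their sex. Its mean went from 1.87 ± 0.129 (n = 5) at 2 weeks to 7.21 ± 1.15 (n = 5) at 52 weeks in females, and from 1.12 ± 0.0773 (n = 5) to 6.30 ± 0.510 (n = 5) at 15 weeks in males, which were the highest means of each sex.

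miR-15b had another shape. It was highest at 5 weeks in both sexes and lower at most later ages. The 2-week females had 5.14, 4.53, 5.18, 4.35 and 4.23, the 5-week females 6.82, 6.67, 9.17, 9.36 and 7.81, and the 15-week females 3.67, 4.12, 2.58, 3.95 and 4.70. The 2-week males had 3.73, 3.29, 3.80, 3.18 and 3.13, the 5-week males 6.34, 7.64, 9.45 and 9.92, and the 15-week males 5.81, 5.20, 6.60, 6.21 and 4.38. No female of 2 or 15 weeks reached the lowest 5-week female, whereas 1 male of 15 weeks lay above the lowest 5-week male. In females the mean was 7.97 ± 1.27 (SD, n = 5) at 5 weeks and 3.55 ± 0.875 (n = 5) at 52 weeks, the lowest of all female groups. In males it was 8.34 ± 1.66 (n = 4) at 5 weeks and 4.54 ± 0.698 (n = 5) at 52 weeks, the lowest mean after 2 weeks.

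miR-16, the broadly expressed member of the family, varied little after 2 weeks. The 2-week females had 11.6, 11.3, 9.57, 11.5 and 10.8 and the 2-week males 8.53, 8.43, 6.96, 8.27 and 8.82. At 5 weeks the females had 18.4, 18.2, 19.2, 20.7 and 19.2 and the males 16.6, 18.9, 18.8 and 18.7. After the 2-week point the group means stayed between 14.1 and 20.6 in females and between 14.0 and 20.8 in males, with the highest at 8 weeks in both. The highest mean was 1.88 times the lowest in females and 2.54 times in males.

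**Figure D1:**
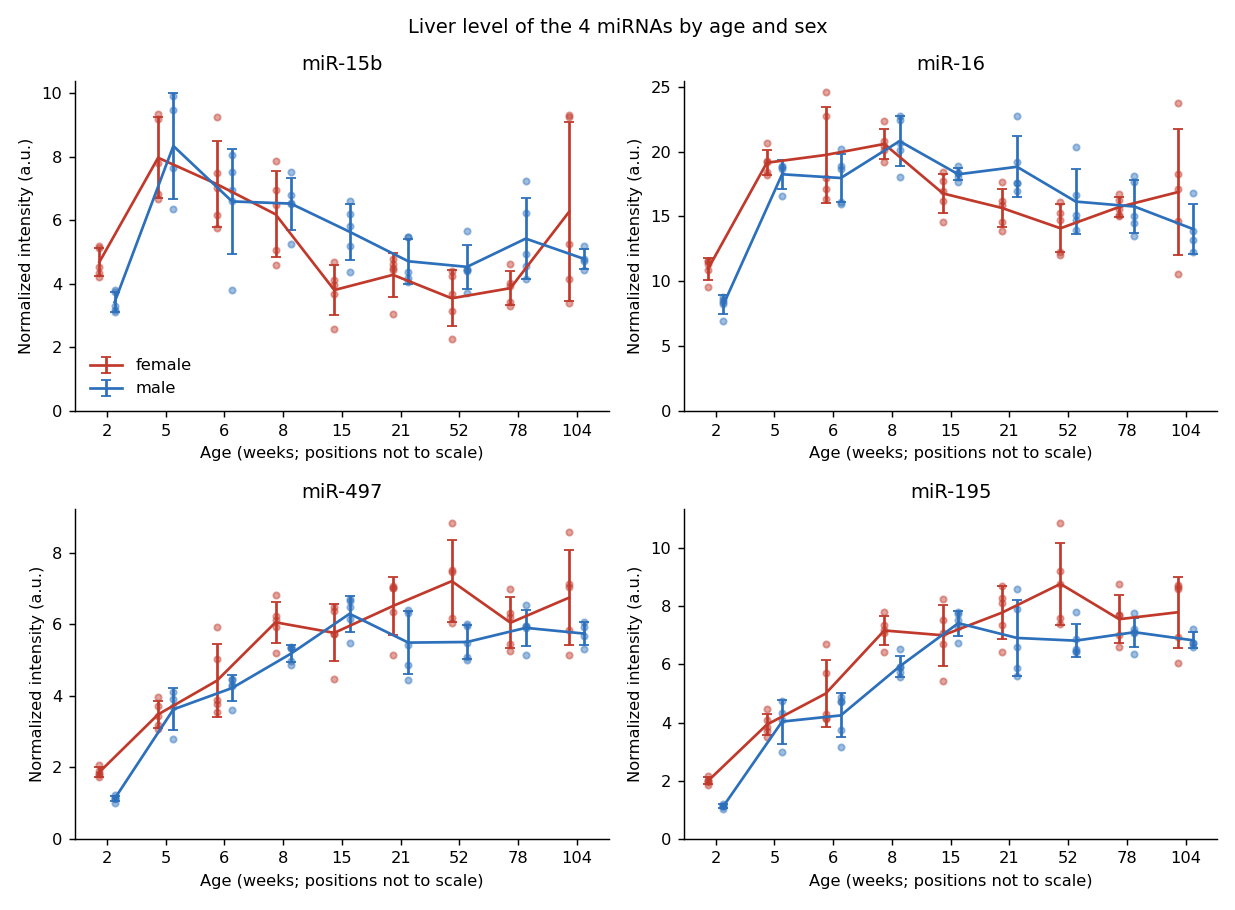
Normalized intensity (vertical axis, arbitrary units in which 1 is the 75th percentile of an array) of miR-15b, miR-16, miR-497 and miR-195 at 9 ages in weeks, with females in red and males in blue. Points are single arrays, lines join group means and bars are SD (n = 4 or 5). miR-195 and miR-497 rise from 2 weeks, to means of 8.77 and 7.21 in females at 52 weeks, while miR-15b is highest at 5 weeks (7.97 in females and 8.34 in males).

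Age was tested within each sex with limma across all 314 expressed miRNAs, and a contrast was called at a Benjamini-Hochberg adjusted p (FDR) below 0.05 with at least a 1.5-fold change. All 4 members differed among the 9 ages in both sexes, where 57.3% of the expressed miRNAs did in females and 54.1% in males. Of the 36 pairs of ages, miR-195 was called in 18 in females and 18 in males and miR-497 in 16 and 13, with the older age higher in every one. miR-16 was called in 4 pairs in females and 8 in males, all of them against 2 weeks and all higher at the older age. In a single contrast against 2 weeks, 30.3 to 47.1% of expressed miRNAs were called in females and 42.4 to 45.9% in males. miR-15b was called in both directions, 3 higher and 9 lower at the older age in females and 5 higher and 4 lower in males.

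The members also differed from each other in the contrasts among the 8 ages after 2 weeks. Of these 28 contrasts, miR-195 was called higher at the older age in 10 in each sex, miR-497 in 8 in females and 5 in males, and miR-16 in none. miR-15b was called lower at the older age in 9 in females and 4 in males, and higher in 1 in females. Of all expressed miRNAs, between 0 and 16.6% in females and between 0 and 10.8% in males were called in a single one of these contrasts.

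From 5 to 52 weeks miR-15b moved in the opposite direction to miR-195 and miR-497. These are the ages of the highest and the lowest later mean of miR-15b in both sexes. The adjusted p-values do not allow for a choice among the 36 pairs of ages. miR-15b fell by 1.19 on the log2 scale in females (limma, adjusted p = 6.67e-05) and by 0.87 in males (limma, adjusted p = 0.000239), while 16.6% of the expressed miRNAs were called in females and 10.8% in males. Over the same interval miR-195 rose by 1.15 in females (limma, adjusted p = 2.91e-09) and 0.77 in males (limma, adjusted p = 3.72e-06), and miR-497 by 1.04 (limma, adjusted p = 1.29e-07) and 0.62 (limma, adjusted p = 1.04e-05). The values for miR-16, at -0.45 in females (limma, adjusted p = 0.00608) and -0.19 in males (limma, adjusted p = 0.300), were below 1.5-fold. These directions held in all 12 processing settings tried for miR-15b (-1.73 to -0.85 in females, -1.27 to -0.20 in males), miR-195 (0.61 to 1.15 and 0.39 to 1.44) and miR-497 (0.51 to 1.05 and 0.26 to 1.28). The threshold was passed in 12 and 11 of the settings for miR-15b, 11 and 9 for miR-195 and 10 and 7 for miR-497, in females and males. The 12 settings include the deposited table, other values for undetected miRNAs and the detection filter. These cannot change the log2 value of a miRNA detected on every array, here or in the ranges below.

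Between 5 and 15 weeks the separation was already present. miR-195 rose by 0.83 in females and 0.90 in males (limma, adjusted p = 5.24e-06 and 2.34e-07), and miR-497 by 0.72 and 0.81 (limma, adjusted p = 0.000108 and 5.97e-08), where 11.8% and 10.5% of the expressed miRNAs were called. Over the 12 settings the values ranged from 0.46 to 0.85 in females and from 0.31 to 1.55 in males for miR-195, called in 9 and 10, and from 0.36 to 0.75 and 0.27 to 1.46 for miR-497, called in 9 and 9. miR-15b fell by 1.08 in females (limma, adjusted p = 0.000318). In males its difference of -0.56 (limma, adjusted p = 0.0252) was under 1.5-fold, and it ranged from -1.0 to 0.10 over the 12 settings, so its sign was not settled.

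Between 2 and 5 weeks, around weaning, all 4 members rose in both sexes, where 30.3% of the expressed miRNAs were called in females and 42.4% in males. On the log2 scale the rise was 0.76 in females and 1.27 in males for miR-15b, 0.81 and 1.16 for miR-16, 0.97 and 1.83 for miR-195 and 0.90 and 1.68 for miR-497. The sign was positive in all 12 settings for each member and sex, but the size varied, from 0.28 to 1.72 for miR-15b in females and from 0.96 to 2.62 for miR-195 in males. The call was kept in 9 settings in females and 10 in males for miR-15b, 9 and 9 for miR-16, 11 and 12 for miR-195 and 10 and 12 for miR-497. With the ages placed in order of their mean level, 10 of the 64 steps between neighbouring ages had an adjusted p below 0.05 in limma. For miR-15b in males and miR-16 in both sexes this was the step up from 2 weeks alone, and for miR-15b in females no neighbouring ages differed. For miR-195 it was the step from 2 to 5 weeks in both sexes, that from 6 to 15 weeks in females and that from 6 to 8 weeks in males. For miR-497 it was the step from 2 to 5 weeks in both sexes and that from 6 to 15 weeks in females.

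By age class, miR-195 in females was 1.86, 1.98 and 2.18 (lowest, median and highest of 5 young), 3.51, 6.69 and 8.71 (25 adult) and 6.06, 7.72 and 10.9 (15 old). In males it was 1.01, 1.14 and 1.19 (5 young), 2.97, 5.80 and 8.60 (24 adult) and 6.38, 6.81 and 7.80 (14 old). The young never overlapped with the adult or old arrays, in the latter case together with 13.4% of expressed miRNAs in females and 20.4% in males that were without overlap and higher in the old. From young to adult, miR-195 rose 2.98-fold in females (log2 1.57, 95% interval 1.23 to 1.92; limma, adjusted p = 6.37e-11) and 4.98-fold in males (log2 2.32, 95% interval 2.00 to 2.63). miR-497 rose by 1.44 on the log2 scale in females (SE 0.161; limma, adjusted p = 1.70e-10) and by 2.13 in males (SE 0.125). Among the 314 miRNAs, ranked from the largest rise, miR-195 and miR-497 stood at 21 and 25 in females and at 14 and 18 in males. Within the 3 scan runs that held both classes, the change of miR-195 was 1.33 to 1.81 in females and 2.09 to 2.39 in males, and that of miR-497 1.19 to 1.61 and 2.01 to 2.23. From young to old the rises were 2.00 and 2.63 for miR-195 and 1.82 and 2.35 for miR-497, in females and males.

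For the chromosome 2 pair the same contrast depended on how the arrays were scaled. miR-16 from young to adult was 0.73 higher in females (SE 0.109; limma, adjusted p = 1.63e-07) and 1.20 higher in males (SE 0.0799) under the 75th percentile, but only 0.08 and 0.08 when the percentile came from the 103 miRNAs that every array detected (always-detected). miR-15b was 0.25 higher in females (SE 0.240; limma, adjusted p = 0.438) and 0.83 higher in males (SE 0.155; limma, adjusted p = 8.98e-06), and these became -0.40 and -0.28 under that other scaling. Under quantile normalization they were -0.47 and -0.20. Within scan runs miR-16 changed by 0.44 to 0.87 in females and 1.06 to 1.26 in males, and miR-15b by -0.32 to 0.50 and 0.87 to 1.05. miR-195 and miR-497, in contrast, were called higher in adults in all 14 settings in both sexes, with 0.92 to 2.34 and 1.20 to 3.51 for miR-195 and 0.79 to 2.21 and 1.02 to 3.32 for miR-497 in females and males.

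Under the main scaling, 3 of the 4 members in females and 4 of 4 in males were called higher in adults than in the young, where 22.9% and 29.9% of all expressed miRNAs were. The median change was 1.09 for the members in females and 1.66 in males, against 0.13 and 0.13 over all expressed miRNAs. miR-16, miR-195 and miR-497 had no overlap between adult and young arrays in either sex, which held for 12.7% of expressed miRNAs in females and 17.5% in males in that direction. From young to old, miR-195 and miR-497 were called higher in both sexes and miR-16 in males, where 25.5% and 28.7% of all expressed miRNAs were. miR-16 in females (0.48, limma, adjusted p = 0.000336) and miR-15b in males (0.51, limma, adjusted p = 0.00736) were below 1.5-fold, and miR-15b in females was at -0.14 (limma, adjusted p = 0.704). From young to old the values of both miR-15b and miR-16 changed sign under at least 1 other scaling in both sexes.

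No member was called between adult and old in either sex, where 4.46% of expressed miRNAs were in females and 5.1% in males. The differences were -0.39 (limma, adjusted p = 0.132) and -0.33 (limma, adjusted p = 0.0375) for miR-15b, -0.25 (limma, adjusted p = 0.0189) and -0.30 (limma, adjusted p = 9.55e-05) for miR-16, 0.42 (limma, adjusted p = 0.0107) and 0.31 (limma, adjusted p = 0.0536) for miR-195 and 0.38 (limma, adjusted p = 0.0178) and 0.22 (limma, adjusted p = 0.105) for miR-497, in females and males. When all 104-week arrays were left out, a setting chosen after seeing the data, the female value of miR-15b was -0.61 and was called (limma, adjusted p = 0.00787).

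**Figure D2:**
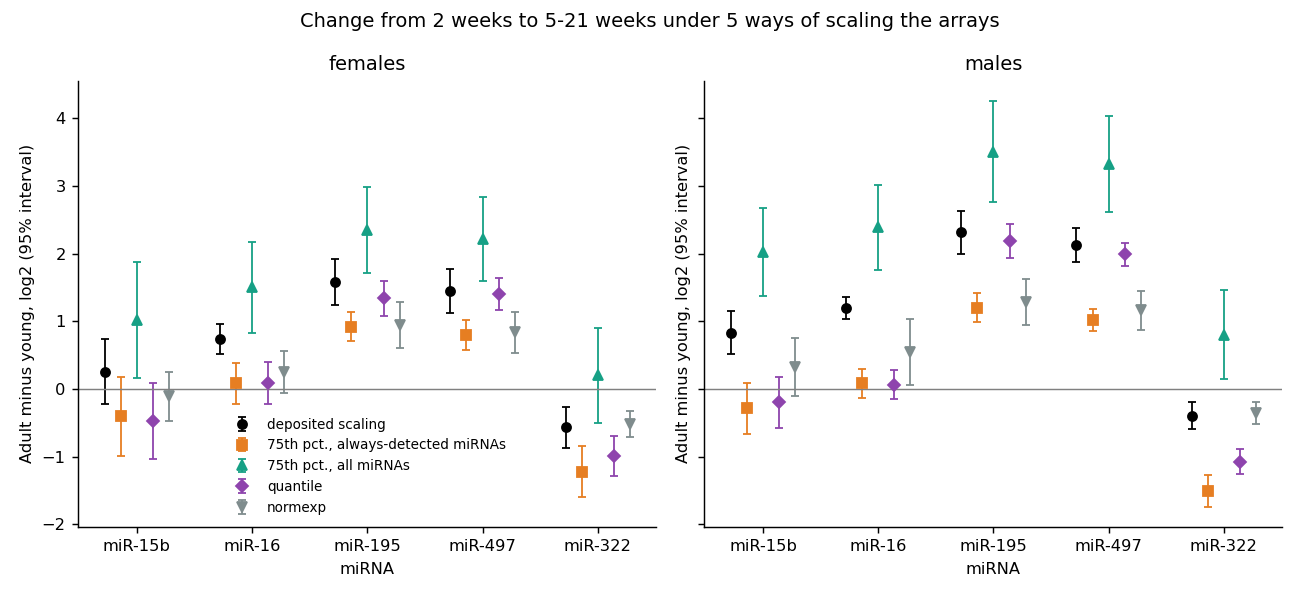
Log2 change from young to adult (points) with its 95% interval (bars) for miR-15b, miR-16, miR-195, miR-497 and miR-322 under 5 ways of scaling or background-correcting the arrays, for females and males separately. miR-195 and miR-497 lie above 0 under all 5, whereas miR-15b lies on both sides of 0 in both sexes (0.25 in females and 0.83 in males under the main scaling, -0.40 and -0.28 with the percentile of the always-detected miRNAs).

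The ratio of 2 members on the same array is not changed by dividing an array by 1 number, and it differed between age classes. The mean log2 ratio of miR-15b to miR-195 in females was 1.23, 1.01, 0.52, -0.24, -0.89, -0.87, -1.33, -0.97 and -0.42 at the 9 ages in order, and in males 1.61, 1.05, 0.61, 0.13, -0.41, -0.55, -0.60, -0.42 and -0.52. It was lower at each age than at the one before from 2 to 15 weeks in both sexes, and varied without an order thereafter. For miR-16 to miR-195 the means were 2.46, 2.29, 1.99, 1.52, 1.27, 1.01, 0.69, 1.06 and 1.08 in females, and 2.87, 2.20, 2.09, 1.81, 1.30, 1.46, 1.23, 1.14 and 1.03 in males. These values describe change, not which miRNA was more abundant.

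From young to adult the ratio of miR-15b to miR-195 fell by 1.32 on the log2 scale in females, 2.5-fold (exact permutation test, two-sided, adjusted p = 0.00018), and by 1.48 in males, 2.79-fold (exact permutation test, adjusted p = 0.0001), over 30 ratio tests adjusted together. The ratio of miR-16 to miR-195 fell by 0.84 in females (exact permutation test, adjusted p = 0.000253) and by 1.12 in males (exact permutation test, adjusted p = 0.0001). In males neither ratio overlapped between young and adult arrays. Both ratios were lower in the old class than in the adult class, that of miR-15b by 0.81 in females and 0.64 in males (permutation test, adjusted p = 0.00201 and 0.0006) and that of miR-16 by 0.67 and 0.61 (permutation test, adjusted p = 0.000253 and 0.0001). The adult class holds the 5- to 8-week arrays, whose ratios were higher, and the group means given above showed no steady decline of miR-15b to miR-195 after 15 weeks in either sex. The mean ratio of miR-16 to miR-195 in males was 1.46 at 21 weeks and 1.23, 1.14 and 1.03 at the 3 later ages, lower at each than at the age before. Against miR-497 as the denominator the falls were 1.19 and 1.30 for miR-15b and 0.71 and 0.93 for miR-16 from young to adult, and 0.77, 0.54, 0.63 and 0.51 from adult to old. All 16 ratios of a chromosome 2 to a chromosome 10 miRNA across age classes had an adjusted p below 0.05.

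Within each cluster the ratios were steadier. The ratio of miR-195 to miR-497 had an SD of 0.123 log2 over all 88 arrays, compared with 0.868 for miR-15b to miR-195, 0.614 for miR-16 to miR-195 and 0.358 for miR-15b to miR-16. From young to adult miR-195 gained 0.13 log2 on miR-497 in females (exact permutation test, adjusted p = 0.000615) and 0.18 in males (exact permutation test, adjusted p = 0.0508). From adult to old it gained 0.10 in males (permutation test, adjusted p = 0.0199) and 0.05 in females (permutation test, adjusted p = 0.0463), the latter past no threshold after normexp correction, with the mean processed signal or in 26 of 88 cases with 1 array left out. miR-15b lost 0.48 on miR-16 in females (exact permutation test, adjusted p = 0.0107) and 0.36 in males (exact permutation test, adjusted p = 0.0421). The male value was -0.22 and not past the threshold after normexp correction, and its call was also lost without 2-week male 1, 2 or 3 (-0.42 to -0.27 over all single arrays left out). From adult to old this last ratio changed by -0.14 and -0.03 (permutation test, adjusted p = 0.271 and 0.807).

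**Figure D3:**
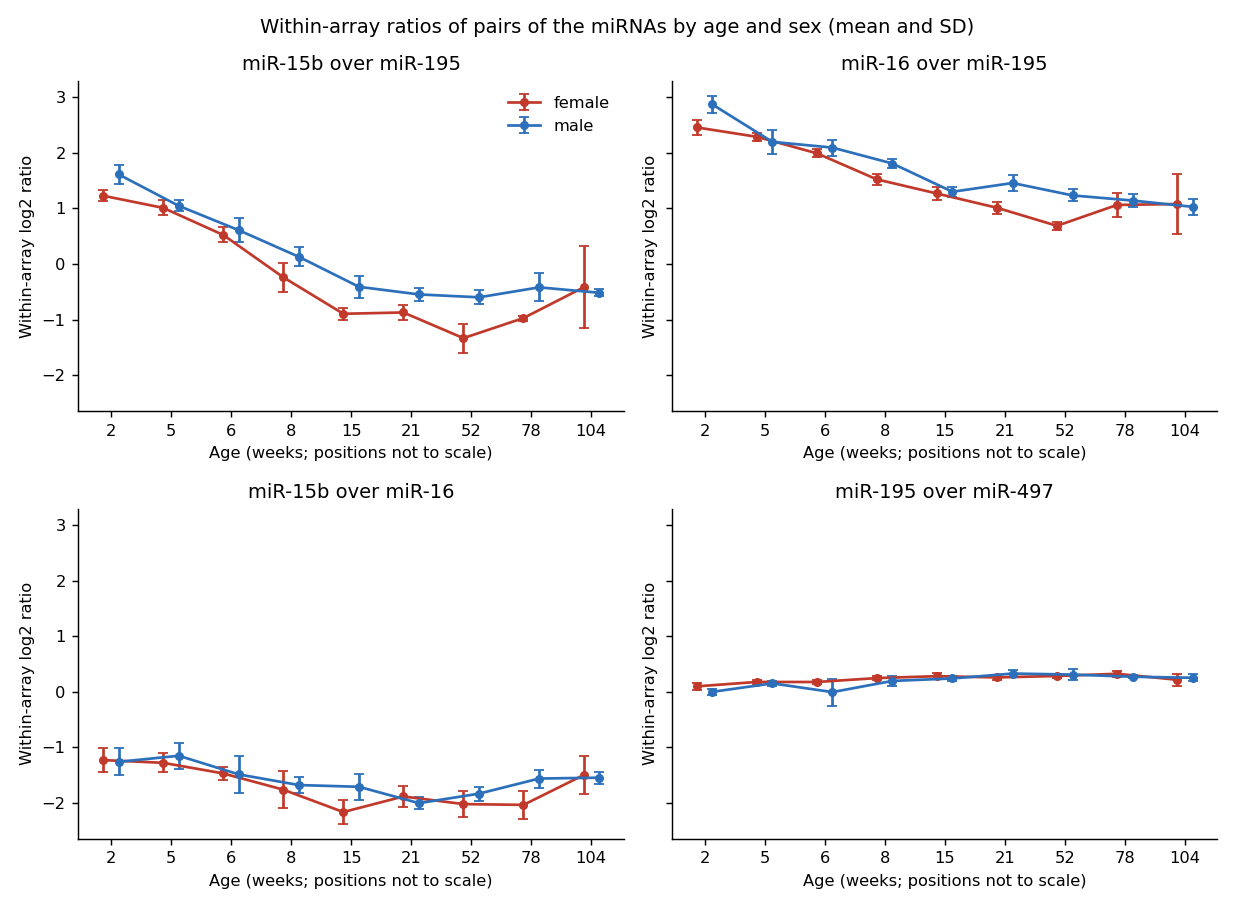
Mean log2 ratio of 2 miRNAs on the same array (vertical axis) at 9 ages in weeks for miR-15b over miR-195, miR-16 over miR-195, miR-15b over miR-16 and miR-195 over miR-497, females in red and males in blue, with SD bars (n = 4 or 5). The ratios of chromosome 2 to chromosome 10 miRNAs decline up to 15 weeks, from 1.23 to -0.89 in females and from 1.61 to -0.41 in males for miR-15b over miR-195, and miR-195 over miR-497 stays close to level (SD 0.123 over 88 arrays).

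Over the 18 group means, the log2 levels of miR-195 and miR-497 correlated at r = 0.997. miR-16 correlated about equally with miR-15b (0.652), miR-195 (0.653) and miR-497 (0.672), whereas miR-15b gave 0.0044 with miR-195 and 0.042 with miR-497. By this measure, which takes in the 2-week groups, miR-16 lay no closer to its neighbour on chromosome 2 than to the chromosome 10 pair. Other measures placed it nearer to miR-15b. Its ratio to miR-15b had an SD of 0.358 over the 88 arrays, compared with 0.614 for its ratio to miR-195. From adult to old both chromosome 2 miRNAs were lower and both chromosome 10 miRNAs higher, although none was called. The correlations are descriptions over groups measured on the same arrays with the same scaling. Within groups, the deviations of single arrays from their group mean correlated at 0.898 for miR-195 and miR-497 over the 88 arrays, at 0.693 for miR-15b and miR-16, at 0.619 for miR-15b and miR-195 and at 0.528 for miR-16 and miR-195. Without the 2 farthest arrays of each pair, miR-16 and miR-195 gave 0.704 and miR-15b and miR-16 gave 0.655, so the order of these pairs rested on single arrays. Among all pairs of the 103 miRNAs detected on every array the median was 0.192 and the 95th percentile 0.682. At 2 weeks alone, over 10 arrays, miR-15b and miR-16 gave -0.538, which became 0.300 without the 2 farthest arrays.

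The miRNAs most like each member over the 18 group means were taken from the 99 other miRNAs detected on all arrays. For miR-15b they were miR-25 (r = 0.891), miR-106b (0.814) and miR-93 (0.792), which are the 3 miRNAs of the miR-106b-25 cluster in an intron of Mcm7, a replication helicase gene. miR-25 in females averaged 1.92 in the young, 2.22 in adults and 2.08 in the old, and in males 1.54, 2.44 and 2.18. For miR-16 they were miR-27a (0.867), miR-25 (0.828) and miR-21 (0.813). For miR-195 they were miR-29a (0.983), miR-10a-5p (0.979) and miR-29c (0.975), and for miR-497 miR-29a (0.978), miR-140 (0.976) and miR-10a-5p (0.973). miR-29a, known for repressing collagen messages, averaged 7.59, 41.0 and 69.8 in young, adult and old females and 3.91, 36.2 and 60.2 in males. Least alike was miR-26b for miR-15b (-0.363) and miR-335 for miR-16 (-0.547), miR-195 (-0.865) and miR-497 (-0.858). miR-335 averaged 4.45, 1.98 and 1.75 in females and 4.94, 1.64 and 1.27 in males.

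The sexes differed at 2 weeks, where the males had the lower values. miR-195 was 1.78-fold lower in males (log2 -0.83, SE 0.119; limma, adjusted p = 1.77e-08) and miR-497 was 1.67-fold lower (log2 -0.74, SE 0.117; limma, adjusted p = 2.40e-07). These 2 of the 4 members were called lower in males, compared with 7.64% of all expressed miRNAs. miR-16 differed by -0.42 (limma, adjusted p = 0.00254), which is 1.34-fold and below the threshold, and miR-15b by -0.45 (SE 0.192; limma, adjusted p = 0.0656). For all 4 members every 2-week male was below every 2-week female under the main scaling, which 16.9% of expressed miRNAs showed. After quantile normalization the sex difference of miR-16 changed sign. Within the 2 scan runs that held both sexes, miR-195 differed by -0.70 and -1.04 and miR-497 by -0.70 and -0.92. Each of these values compares 1 male with 2 females. The other 3 males were in a scan run without a 2-week female, so sex and scan run cannot be told apart for them. The median over all expressed miRNAs was -0.12, and neither call held when the percentile came from the 103 always-detected miRNAs or from all 677, or after normexp background correction.

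The ratios at 2 weeks are not changed by the choice of percentile. The log2 ratio of miR-16 to miR-195 was 2.41, 2.61, 2.25, 2.54 and 2.48 in females and 2.90, 3.06, 2.64, 2.86 and 2.89 in males, and the sexes did not overlap. It was 0.41 higher in males (adjusted p = 0.0113, from an exact permutation p of 0.00794, the lowest possible with 5 against 5 arrays). The log2 ratio of miR-15b to miR-195 was 1.24, 1.28, 1.36, 1.13 and 1.12 in females and 1.71, 1.70, 1.77, 1.48 and 1.39 in males, 0.38 higher in males and again without overlap. The ratio of miR-195 to miR-497 was 0.10 lower in males (exact permutation test, adjusted p = 0.0199), and that of miR-15b to miR-16 differed by -0.03 (exact permutation test, adjusted p = 0.810). The chromosome 10 pair was thus lower in males relative to the chromosome 2 pair on the same arrays. With normexp background correction the ratios of a chromosome 2 to a chromosome 10 miRNA were 0.02 to 0.12 higher in males and were not past the threshold.

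At the 8 later ages no member was called between the sexes under the main scaling. With the percentile of all miRNAs, 4 members were called at 8 weeks, where 102 of the 314 were, 1 at 15 weeks and 1 at 52 weeks, and with that of the always-detected miRNAs 1 was called at 78 weeks. Of all expressed miRNAs, 0% were called at 5 weeks, 0.637% at 6, 5.1% at 8, 9.24% at 15, 6.05% at 21, 6.69% at 52, 3.82% at 78 and 4.46% at 104 under the main scaling. At 15 weeks that was 29 miRNAs, 10 higher and 19 lower in males, but 125 were higher and 15 lower with undetected values at the array's lowest detected intensity, and 0 and 4 after normexp correction. At 104 weeks that was 14 miRNAs, but the methods' t-test, and limma on the arrays of that age alone, called 1. miR-15b at 15 weeks, with values above, was 0.58 higher in males (limma, adjusted p = 0.0371), just under 1.5-fold. It passed the threshold with scan as a block, at 0.63, and ranged from 0.45 to 0.67 when single arrays were left out, and was called without female replicate 2 or 6 or male replicate 2 or 6. At 52 weeks miR-195 was at -0.35 (limma, adjusted p = 0.0482) and miR-497 at -0.38 in males relative to females (limma, adjusted p = 0.0242), both under 1.5-fold. Every male had less miR-497 than every female at that age, which 3.82% of expressed miRNAs showed, but both values turned to 0.57 and 0.55 when the percentile was taken over all miRNAs on the array.

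The change from young to adult was larger in males than in females for 3 of the 4 members, where the interaction was called for 27.1% of expressed miRNAs and with a larger male value for 13.1%. The male change exceeded the female one by 0.46 for miR-16 (SE 0.138; limma, adjusted p = 0.00746), 0.74 for miR-195 (SE 0.232; limma, adjusted p = 0.0117) and 0.69 for miR-497 (SE 0.206; limma, adjusted p = 0.00801). For miR-15b it was 0.58 (limma, adjusted p = 0.145). None of the 4 was called when the percentile came from the 103 always-detected miRNAs or from all miRNAs, or after normexp correction, and the value for miR-16 was -0.02 after quantile normalization. No member differed in its change from adult to old (limma, adjusted p = 0.996 to 1), where the interaction was called for 1.59% of expressed miRNAs.

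The other strands of the members' hairpins, miR-322 and miRNAs listed beside it were looked for, and are called relatives here. Of those detected, only miR-322 shares the members' seed and only miR-15b* comes from a member's hairpin. Of 22 names, some of them further names of the same strand, 11 were on the array. Of these, 6 were detected at least once, where 314 of all 677 miRNAs on the array were. The passenger strands miR-16*, miR-195* and miR-497* were detected on no array and miR-15b* on 1, a 2-week male. miR-322, which shares the seed and comes from the chromosome X cluster with miR-503, was detected on all 88. At 2 weeks it was 2.74, 2.15, 2.38, 2.23 and 2.22 in females and 2.15, 1.96, 2.21, 2.10 and 2.08 in males, and the later group means were 1.15 to 1.86. Its course with age thus ran opposite to that of miR-195 under the main scaling. From young to old it fell by 0.76 in females (limma, adjusted p = 6.71e-05) and 0.61 in males (limma, adjusted p = 2.74e-06), and over 14 settings the values ranged from -1.59 to 0.09 and from -1.71 to 0.54, above 0 only with the percentile over all miRNAs. From young to adult the values of -0.57 and -0.39 (limma, adjusted p = 0.00143 and 0.000689) were under 1.5-fold.

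The dim relatives miR-322*, miR-503, miR-542-3p and miR-542-5p were detected most often at 2 weeks. They hold neither the members' seed nor a strand of the members' hairpins. miR-542-5p was detected on 10 of 10 young, 4 of 49 adult and 1 of 29 old arrays. miR-503 was detected on 7, 2 and 1, miR-542-3p on 10, 19 and 14, and miR-322* on 10, 20 and 18. Of the 6 detected relatives, these 4 were called lower and 0 were called higher in adults than in the young in each sex. Of all expressed miRNAs, 16.9% were called lower in females and 19.7% in males. miR-322, which holds the seed, and miR-15b* were not called. The median change of the 6 was -1.67 in females and -2.35 in males. Because most adult values were below detection, the sizes depend on the value that stands for undetected, and after normexp correction none of the 6 was called lower in either sex.

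**Figure D4:**
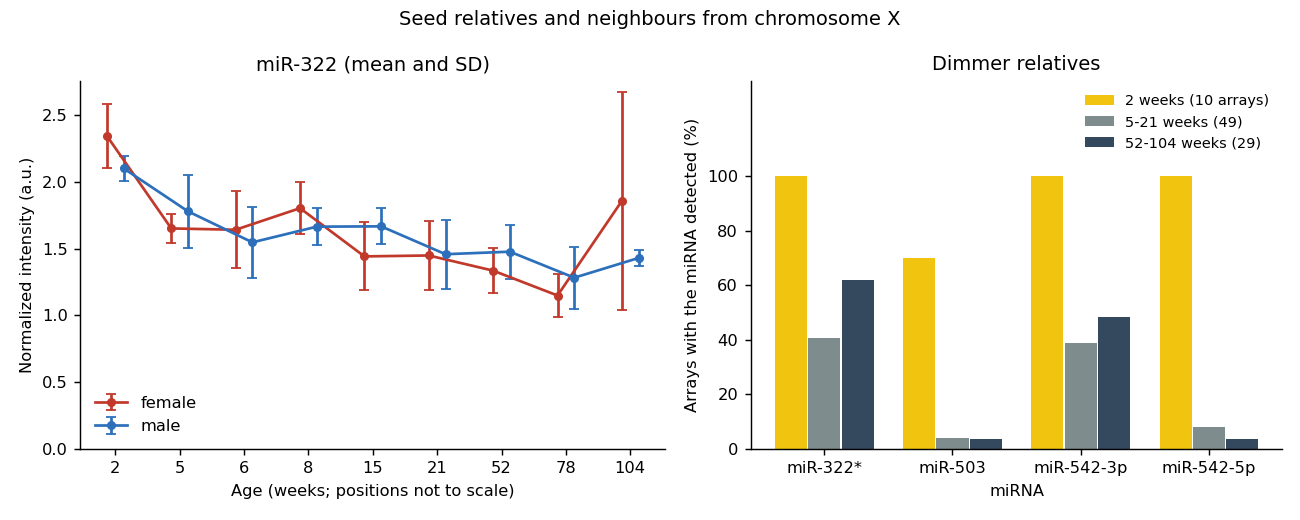
Left, normalized intensity of miR-322 (mean and SD, n = 4 or 5) at 9 ages in weeks in females (red) and males (blue), highest at 2 weeks (2.34 and 2.10) under the main scaling, a direction that turned with the percentile over all miRNAs. Right, the percentage of arrays on which miR-322*, miR-503, miR-542-3p and miR-542-5p were detected at 2 weeks (10 arrays), 5 to 21 weeks (49) and 52 to 104 weeks (29), where miR-542-5p goes from 100% to 8.16% and 3.45%.

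Other miRNAs known to act on the cell cycle were taken as lists. Of 16 listed as growth-restraining (the let-7, miR-26, miR-29 and miR-101 families, miR-34a and miR-122), 8 rose from young to adult in females and 12 in males and none fell, with median changes of 0.56 and 1.07, where 22.9% and 29.9% of all expressed miRNAs were called higher, but with the percentile of the 103 always-detected miRNAs 4 were higher in each sex, and 1 and 3 were lower, where 25 of all 314 were higher and 81 lower in females and 23 and 105 in males. miR-29a (2.34 in females and 3.15 in males) and miR-29b (2.59 and 2.67) had the largest rises when averaged over the sexes. Of the 12 linked to proliferation, 11 were expressed. In females miR-21 rose and miR-18a fell (by 0.90), and in males miR-21, miR-221 and miR-25 rose and none fell, where 16.9% and 19.7% of all expressed miRNAs were called lower in females and males. With the percentile of the always-detected miRNAs, which called 81 and 105 of all 314 lower, 5 of these were lower in females and 7 in males. miR-18a in males was at -1.69 (limma, adjusted p = 0.0592), and miR-17-5p was at -0.32 and -0.26, under 1.5-fold. From adult to old 4 growth-restraining miRNAs rose in each sex (miR-29a, miR-29b, miR-29c and miR-34a), where 1.59% and 3.82% of all expressed miRNAs were called higher, while of the proliferation list miR-18a fell by 0.61 in females and miR-221 fell by 1.22 in males, where 2.87% and 1.27% were called lower.

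Marker miRNAs of other cell types were summed by list and are given with no test. The summed intensity of the hepatocyte list (miR-122, miR-192, miR-194) had medians of 653 in young, 1024 in adult and 1065 in old females and 418, 970 and 985 in males. For the leukocyte list the medians were 4.59, 9.0 and 10.6 in females and 3.57, 9.01 and 12.8 in males. For the erythroid list they were 3.95, 6.81 and 11.1 in females and 4.96, 11.2 and 11.5 in males. For the biliary list (the miR-200 family) they were 3.94, 1.91 and 1.43 in females and 2.89, 2.83 and 1.85 in males, and for the endothelial and stromal list 33.0, 33.9 and 33.3 and 26.9, 35.3 and 29.7. The skeletal muscle list had medians of 3.28, 0.436 and 0.132 in females and 0.0829, 0.131 and 0.0422 in males, with up to 65.6 on an adult male array, and the pancreas list 0.637, 0.261 and 0.579 and 0.518, 0.108 and 0.26. Over the 78 arrays of 5 to 104 weeks, which share the scaling, the hepatocyte sum correlated at r = 0.736 with miR-195, 0.733 with miR-497 and -0.335 with miR-15b, the biliary sum at 0.658 with miR-15b and -0.510 with miR-195, and the endothelial and stromal sum at 0.701 with miR-16. On the same arrays the leukocyte sum correlated at 0.385 with miR-195 and 0.408 with miR-497. The biliary sum gave 0.479 with miR-16, and the endothelial and stromal sum 0.437 with miR-15b. The part of these cell types in the results was not tested.

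At 104 weeks, 2 females stood apart. The 5 females (replicates 1, 2, 5, 7 and 8) had miR-15b at 9.23, 4.16, 3.40, 5.26 and 9.3, miR-16 at 23.8, 14.6, 10.6, 17.1 and 18.3 and miR-195 at 6.06, 8.60, 6.94, 8.65 and 8.74. The 4 males had miR-15b at 5.19, 4.43, 4.79 and 4.71. Replicates 1 and 8 thus reached the 5-week level of miR-15b, and the SD of the group, 2.81, was the largest for this miRNA. In the same replicates 1 and 8 the leukocyte sum was 19.6 and 30.0, compared with 10.1 to 10.9 in the other 3 females and a median of 9.99 over the remaining 76 arrays of 5 to 104 weeks, and miR-142-3p, a leukocyte marker, was 13.9 and 22.2. Their hepatocyte sums were 691 and 713, compared with 1060 to 1234 in the other 3, and their biliary sums were 1.84 and 2.52, compared with 1.43, 0.378 and 0.581. Replicate 8 also had the highest miR-322 of all arrays, 3.19, and was the only old array on which miR-503 (0.0480) and miR-542-5p (0.172) were detected. A 104-week male with a leukocyte sum of 22.7 had miR-15b at 5.19. Over the 78 arrays of 5 to 104 weeks the leukocyte sum correlated with miR-15b at r = -0.125 (Spearman's rho -0.244). The part of these cells in the miR-15b values of the 2 females was not tested.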

How the data were processed

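miRNA of 88 livers was measured on 1-colour (Cy3) Agilent rat miRNA arrays. The authors deposited the scanner output of each array of Agilent Feature Extraction (version 10.7.3.1), whose intensity values are linear and background-subtracted and give an undetected miRNA as 0.1. The authors also deposited a table of ratio values, the total gene signal divided by the 75th percentile of the array. The sex, age and replicate number of each array were taken from its labels. Spots were joined by probe name, since 17 arrays used a later design file with other names. The total gene signal was divided by the value of rank 236 of the 314 expressed miRNAs, undetected values were set to 0.0120 and log2 was taken. Of 15763 detected values, 1 was off from the deposited ratio by over 0.01%.

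Tests were run in R 4.3.3 with limma 3.58.1 on all 314 expressed miRNAs, with Benjamini-Hochberg adjustment over them, separately by sex for age and age class, and over 18 groups for sex. Calls needed an adjusted p under 0.05 and 1.5-fold, the interaction the adjusted p alone. The 6 within-array log2 ratios were tested with exact permutation tests, or 100000 permutations where both groups held 10 or more arrays (scipy 1.17.1). The scripts were tested on simulated data. Arrays fell into 5 scan runs (1, 13, 30, 28 and 16 arrays), separated by gaps of over 8 hours in the scan times, on 13 slides. The number of arrays limits the precision, and no pair of arrays was identical. The members and lists were chosen with earlier results of these data known. The text names the 4 members, every detected relative, the 3 most and the 1 least alike miRNA of each member over the 18 group means, and the 2 largest rises and falls of the cell-cycle lists. Other miRNAs named as called in those lists, and the marker miRNAs, were named after their values were seen. Alternatives were other percentiles, quantile normalization, normexp correction of median spot signals (offset 50), other values for undetected miRNAs, a detection filter, the mean processed signal of the spots, scan, slide and replicate blocks, age fitted in 1 model, the methods' t-test and each array left out.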

Additional observations from a re-analysis of the deposited data

Results flagged for a closer look

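In 3 of the 72 groups of 1 member, sex and age, 1 array lay far from the others by Dixon's criterion, where chance gives about 1 in 20. miR-15b was lowest in 21-week female replicate 6, at 3.06. miR-16 was lowest in 5-week male replicate 1, at 16.6. miR-497 was lowest in 6-week male replicate 1, at 3.61.

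The change from young to adult differed between the sexes in limma's interaction test, being larger in males by 0.46 log2 for miR-16, 0.74 for miR-195 and 0.69 for miR-497. None of these was called with the percentile of the always-detected miRNAs or of all miRNAs, or after normexp correction.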

How the results depend on the processing

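Of 1040 values over all settings, 934 kept their direction and their side of the threshold, or a count within 1.5 times. For a miRNA detected on every array, some of the settings could not change the log2 value. The scaling moved the median change of all expressed miRNAs from young to adult, which was 0.13 in females and 0.13 in males, by -0.17 and -0.40 with the percentile of the always-detected miRNAs, by 0.44 and 0.49 with that over all miRNAs, and by 0.30 and 0.42 after normexp correction. Signal over background limits the dim relatives. The cause was not tested for any change below.

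With the percentile of the always-detected miRNAs, members called numbered 2 from young to adult in males (main 4), 0 between the sexes at 2 weeks (main 2), 1 at 78 weeks and 0 for the interaction (main 3). The young to adult change of miR-15b was -0.40 in females and -0.28 in males, and the young to old change -0.60 in males. miR-16 from young to old was -0.35 in females and -0.21 in males. Growth-restraining miRNAs higher in adults numbered 4 in females and 4 in males, and 1 and 3 were lower. Of those linked to proliferation, 5 and 7 were lower. Among all expressed miRNAs, 25 were called higher and 81 lower in adult than in young females (main 72 and 53), and 23 and 105 in males (main 94 and 62). Between the sexes at 2 weeks 46 were higher and 3 lower in males (main 35 and 24), and for the interaction 9 and 67 (main 41 and 44).

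With the percentile over all miRNAs, members called numbered 0 at 2 weeks, 4 at 8 weeks, 1 at 15 weeks, 1 at 52 weeks and 0 for the interaction. miR-15b from young to old was 0.71 in females, and at 52 weeks miR-195 was 0.57 and miR-497 0.55 higher in males. The relatives had 1 higher in adult males. Of the growth-restraining list 15 were higher in females, and of the proliferation list 5 in females and 10 in males were higher and 0 lower in females. All-miRNA counts were 121 and 46 in females, 132 and 56 in males, 33 and 3 at 2 weeks and 12 and 38 for the interaction. Between the sexes they were 93 and 9 at 8 weeks (main 2 and 14), 6 and 7 at 15 weeks (main 10 and 19) and 18 and 5 at 52 weeks (main 8 and 13).

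After quantile normalization members called from young to adult in males numbered 2. miR-15b was at -0.47 in females and -0.20 in males, and from young to old at -0.59 in males, with miR-16 at -0.26 and -0.34. miR-16 was at -0.022 for the interaction and 0.029 between the sexes at 2 weeks. Of the growth-restraining list 5 in females and 5 in males were higher and 2 and 3 lower, and of the proliferation list 0 were higher and 4 lower in females and 4 lower in males. All-miRNA counts were 70 and 49 in females and 73 and 56 in males.

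After normexp correction members called numbered 2 from young to adult in males, 0 at 2 weeks, 1 at 8 weeks and 0 for the interaction. miR-15b was at -0.11 from young to adult in females. Relatives called lower numbered 0 in females and 0 in males, and growth-restraining miRNAs called higher 5 and 6. The log2 ratio of miR-15b to miR-16 changed by -0.22 from young to adult in males, past no threshold. At 2 weeks the sex difference was 0.12 for miR-15b to miR-195, 0.047 for miR-15b to miR-497, 0.094 for miR-16 to miR-195, 0.024 for miR-16 to miR-497, -0.070 for miR-195 to miR-497 and 0.023 for miR-15b to miR-16. miR-195 to miR-497 changed by 0.054 from adult to old in females, and by 0.042 with the mean processed signal. All-miRNA counts were 28 and 12 in females, 102 and 15 in males, 5 and 8 at 2 weeks and 3 and 2 for the interaction.

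With undetected values at the array's lowest, or at the raw minimum, 1 relative was higher in each sex and 1 proliferation-linked miRNA was lower in males. With only miRNAs detected on at least 50% of arrays, 1 relative was lower in each sex and 1 proliferation-linked miRNA in males, as also with scan or slide as a block. With scan as a block 1 member was called at 15 weeks. Without the 104-week arrays, a choice made after seeing the data, 1 member was called from adult to old in females. All-miRNA counts with the array's lowest were 157 and 45 in females and 191 and 46 in males, with the raw minimum 156 and 46 and 169 and 51, and with the filter 72 and 9 and 94 and 7. Between the sexes at 15 weeks they were 125 and 15 with the array's lowest, and 0 and 4 after normexp correction.

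Leaving out each array in turn, members called at 15 weeks numbered 0 to 1, with miR-15b at 0.45 to 0.67, called without female replicate 2 or 6 or male replicate 2 or 6. Proliferation-linked miRNAs lower in adult males numbered 0 to 1 (1 without 52-week male 1, 5-week male 4 or 6, or 78-week male 6). The ratio of miR-15b to miR-16 in males was -0.42 to -0.27 from young to adult, its call lost without 2-week male 1, 2 or 3, -0.054 to 0.0021 from adult to old, turning without 5-week male 6, and between the sexes at 2 weeks -0.13 to 0.055, turning without female 4 or male 5. miR-195 to miR-497 was 0.16 to 0.21 in males from young to adult, called without 5-week male 1, 6-week male 1, 4 or 5 or 8-week male 2, and 0.037 to 0.065 in females from adult to old, its call lost in 26 of 88 cases. The methods' t-test called 126 and 157 miRNAs from young to adult in females and males, but at 78 and 104 weeks 5 and 1 between the sexes (main 12 and 14), and left the members' counts as they were.

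The replicate numbers do not pair the animals. For the 33 same-numbered pairs across the sexes at 1 age, deviations correlated at -0.690 to 0.736 (mean 0.0705), with 17 over 0.1. With the replicate number as a block, all 19 counts of members were unchanged, and 124 and 154 miRNAs were called from young to adult in females and males, against 125 and 156 without it.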
